A study of Mus musculus with 45 samples.

Results

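The integrated stress response module is a group of 37 mouse genes, all of which occur among the 24333 genes of the deposited gene score table. They were chosen as known members of the pathway: the kinases that sense stress, the transcription factors they switch on, and the amino acid, one-carbon and transfer RNA genes those factors act on. Earlier results of these data were known when the list was made. Counts of members set beside all genes are therefore a description. Their scores were compared between Ter119+ erythroblasts (red cell precursors sorted by the surface protein Ter119) of Stag2 WT and Stag2 KO mice. Both genotypes received pIpC, the compound used to induce the deletion, and cells were taken 6 to 8 weeks after the last dose. Stag2 is part of cohesin, a ring-shaped complex involved in chromatin looping. Nuclei were profiled on the 10x multiome platform, and the 6 chromatin accessibility (ATAC) libraries used here comprise 3 WT and 3 KO, out of 45 samples in the series. The Cre driver, the allele and the age of the mice are not given in the sources used here, nor whether each library came from a separate animal, so p-values measure the spread between these libraries only.

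The integrated stress response slows protein synthesis when a cell lacks amino acids or haem, accumulates misfolded protein or meets a virus. Sensor kinases phosphorylate the initiation factor eIF2, general translation falls, and the factor ATF4 is made in greater amounts and turns on genes for amino acid uptake, amino acid synthesis and transfer RNA charging. In erythroblasts the haem-sensing kinase, encoded by Eif2ak1, is the best known of the sensors, since it couples globin synthesis to haem supply. ATF4 binds DNA with C/EBP partners at a composite element called the C/EBP-ATF response element.

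A gene score sums the ATAC fragments in and around a gene in a nucleus, so it measures accessibility and not RNA, and neighbouring genes share fragments. Each library was represented by its mean score per gene, rescaled to a total of 1000000. Libraries held 5819 to 6990 nuclei in WT and 4617 to 4925 in KO, with 46782673 to 66286151 fragments per library. Of 33320 barcode sequences, 725 occurred in more than 1 library. The share of fragment ends in peaks was lower in every KO library (57.4% to 59.9%) than in every WT library (62.2% to 64.7%). Stag2 itself scored 65.3 ± 0.891 (SD, n = 3) in WT libraries and 62.9 ± 2.08 in KO libraries, which did not differ beyond the spread in limma (adjusted p = 0.348). A score summed over the whole gene does not show the loss of an exon, so this value does not check the labels. The authors' classes named Int (read here as intermediate) and Late held enough nuclei in every library for separate fits. A class named Early held 102, 235 and 20 nuclei in WT and 310, 25 and 16 in KO libraries, and was not fitted alone. Late nuclei numbered 4527, 3021 and 2971 in WT and 2176, 2549 and 2508 in KO. Fits over all nuclei include Early nuclei, so they mix class shares with genotype.

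The promoters of several members carry the response element by its letters. The core TGATGNAA, searched on both strands of RefSeq promoter windows (GRCm38.p6, 250 bases before to 50 after each gene's start), was found in 3.97% of 32851 windows of all genes. Windows were present for 32 of the 37 members, and 11 of these members had a match: Aars, Asns, Atf3, Chac1, Gars, Herpud1, Nupr1, Pck2, Slc7a11, Trib3 and Vldlr. Eif4ebp1, Aldh1l2, Slc7a5, Nars and Wars had no window in the table. A match is a description of the letters, not evidence of binding. The stretches below are those before the start of members whose score was higher in KO over all nuclei. Each runs 5′ to 3′ on the gene's strand, with the matched core in capitals (TTGCATCA, TTTCATCA and TTACATCA are the core read on the other strand).
Chac1, chr2:119351009-119351096 (+): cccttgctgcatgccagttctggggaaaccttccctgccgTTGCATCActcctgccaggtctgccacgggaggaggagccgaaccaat
Asns, chr6:7693210-7693272 (-): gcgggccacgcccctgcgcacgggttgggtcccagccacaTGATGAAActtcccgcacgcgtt
Gars, chr6:55037931-55038000 (+): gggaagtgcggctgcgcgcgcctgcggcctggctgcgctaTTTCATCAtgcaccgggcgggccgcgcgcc
Nupr1, chr7:126625533-126625620 (-): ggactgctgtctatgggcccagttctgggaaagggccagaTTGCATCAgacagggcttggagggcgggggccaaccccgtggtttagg
Slc7a11, chr3:50443632-50443719 (-): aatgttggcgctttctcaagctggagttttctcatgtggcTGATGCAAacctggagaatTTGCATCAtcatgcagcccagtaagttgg
Pck2, chr14:55540123-55540210 (+): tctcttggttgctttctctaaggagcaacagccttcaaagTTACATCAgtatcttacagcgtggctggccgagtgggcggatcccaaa

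These stretches differ in where the core lies: its first base is 193 bases before the start in Chac1, 110 in Nupr1, 103 in Pck2, 30 in Gars and 23 in Asns. Slc7a11 carries 2 matches in opposite orientation, beginning 66 and 47 bases before its start. The match in Trib3 lies after the start, and the window of Atf3 belongs to a start 34706 bases from the one in the gene score table, so neither is shown. Of the 15 members called higher in KO over all nuclei, 14 had a window and 8 of those had a match. The 8 include Atf3 and Trib3, and also Slc7a11, which was tested only because its KO scores were high. Of the other 22 members, 18 had a window and 3 had a match. In Late nuclei 20 members were called higher, of which 18 had a window and 9 a match. Of the other 17, 14 had a window and 2 a match. These counts are a description and were not tested. The GATA motif of erythroid genes (AGATAA or TGATAA, both strands) was in 18.6% of all windows and in those of 4 members, Atf3, Atf4, Ddit3 and Ppp1r15a.

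Over all nuclei, the members that rose in KO included the glutathione-degrading enzyme gene Chac1, the mitochondrial serine gene Shmt2, the factors Atf3 and Nupr1, the feedback gene Trib3, the asparagine synthetase gene Asns and the glycyl-tRNA synthetase gene Gars. Other induced genes of the response were not called, among them Ppp1r15a, Sesn2, Psph, Slc3a2 and Wars, and Ddit4 and Nars were lower. Of the 35 members tested, 15 were higher and 2 were lower in KO at an adjusted p under 0.05 (limma, Benjamini-Hochberg over 17682 genes). Among all genes tested, 29.1% were higher and 14.2% lower. The 15 include Phgdh and Slc7a11, whose WT means lay under the score minimum of 5 and which were tested only because their KO scores were high; 13 were higher without them. The libraries of the 2 genotypes did not overlap, in either direction, for 20 of the 35 members and for 55.4% of all genes. Of the 20, 16 were higher in KO, Phgdh and Slc7a11 among them. The share of all genes that were apart and higher is not given here. When each library was centred on its median, which lowered every log2 fold change by 0.15, the split was 11 higher and 6 lower. It was 20 and 2 with quantile normalization and with cyclic loess. With depth strata it was 22 and 3, and with equal weight to Int and Late 20 and 3. The share of all genes called in these alternatives is not given here. Among members not called over all nuclei, at least 1 alternative called Aars, Atf5, Cebpg, Ddit3, Eif2ak3, Herpud1, Slc7a5 and Stc2 higher and Eif2ak1, Mthfd1l, Psph and Sesn2 lower.

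Within the classes, more members were called in Late than in Int nuclei. In Late nuclei 20 of 32 members tested were higher and 3 lower, against 32.9% and 18.5% of all genes. There the libraries did not overlap, in either direction, for 22 members and for 59.5% of all genes. Of the 22, 19 were higher in KO. In Int nuclei 6 of 36 members were higher and 2 lower, against 12.7% and 7.1% of all genes. There the libraries did not overlap, in either direction, for 14 members and for 37.3% of all genes. Of the 14, 6 were higher in KO. For neither class is the share of all genes that were apart and higher given here. With median centring, which lowered every Int fold change by 0.18, the Int split was 4 higher and 5 lower. Without WT replicate 2, 10 members were higher in Int nuclei, and without WT replicate 1, 4. The share of all genes called in these Int alternatives is not given here.

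The background share varied with the score, since genes with low scores were broadly higher in KO. The share of fragment ends in peaks was lower in every KO library over all nuclei and in Late nuclei (60.3% to 61.8% against 64.1% to 66.4% in WT). In Int nuclei it overlapped (55.1% to 56.2% in KO and 55.3% to 61.9% in WT). Genes in the 5 lowest deciles had median log2 fold changes of 0.12 to 0.19 in Int nuclei. The part of the share of fragment ends in peaks in the shift of low-score genes was not tested. In Late nuclei the median log2 fold change ran from 0.36 in the decile of genes with the lowest mean score to -0.05 in the decile with the highest. Averaged over the deciles in which the members lie, 18.4% of genes were higher in Late nuclei, 11.7% in Int nuclei and 18.7% over all nuclei. The members' median log2 fold change was 0.22 in Late nuclei, where that of all genes was 0.05, and 0.0445 in Int nuclei, where that of all genes was 0.06. Taken as a difference from the median of genes in the same decile, the members' median was 0.26 in Late, 0.090 in Int and 0.18 over all nuclei, and 28 members lay above their decile's median in each of the 3 fits. The members that failed the score minimum of 5 are not in these counts: Atf4 in every fit, Vldlr over all nuclei, and Phgdh, Aldh1l2, Slc7a11 and Vldlr in Late nuclei.

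**Figure D1:**
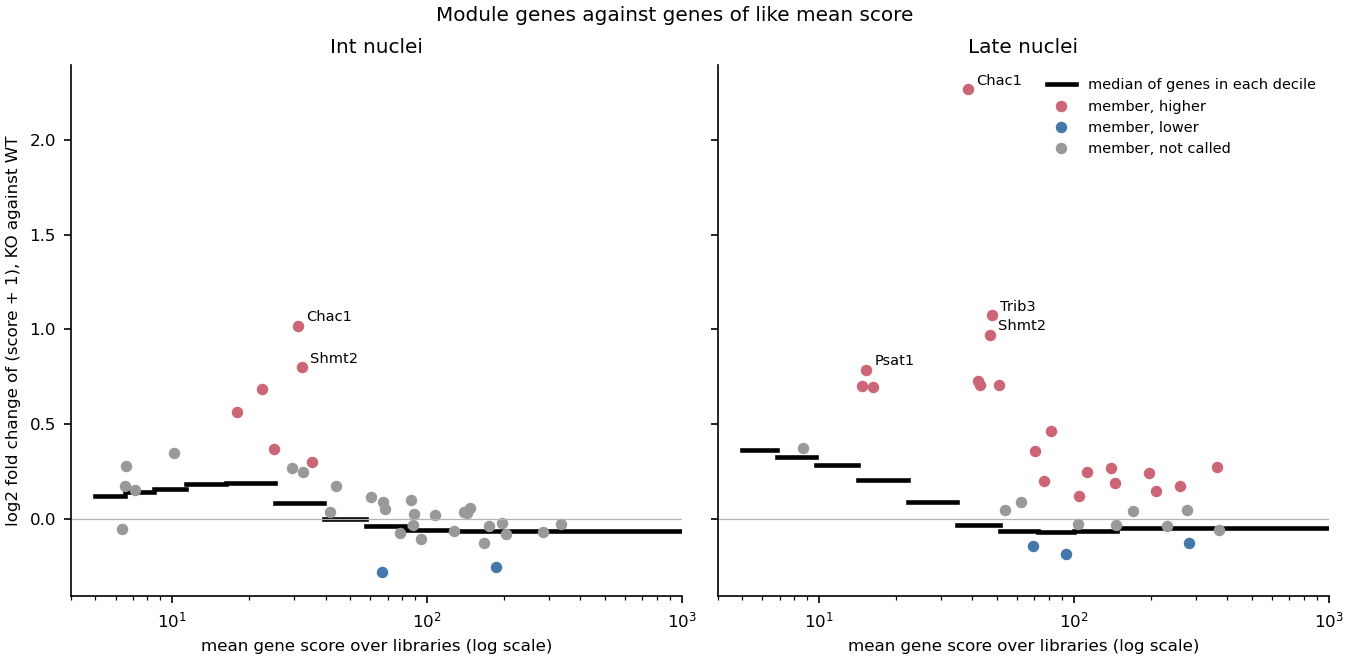
Log2 fold change of each tested member (KO against WT, vertical axis) against its mean gene score over the 6 libraries (log axis), in Int and Late nuclei; black bars are the median over all genes in each decile of mean score. Chac1 (1.02 in Int, 2.27 in Late) and Shmt2 (0.80 and 0.97) stand far above the bars, while the members with high scores lie close to them.

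Markers of some other cell types moved with these scores. In Late nuclei the summed score of 8 stem and progenitor markers was 38.5 to 44.2 in WT and 61.2 to 68.0 in KO, that of 10 myeloid markers 74.2 to 84.0 and 94.0 to 98.6, that of 6 B cell markers 53.0 to 60.9 and 66.6 to 72.4, and that of 7 T or NK cell markers 86.1 to 90.9 and 117 to 123. The summed score of 5 mast cell or basophil markers was 21.9 to 25.1 in WT and 25.65 to 25.9 in KO. Those of 8 macrophage markers (233.8 to 259.4 and 238 to 255.4) and 7 megakaryocyte markers (254.5 to 296.3 and 282.7 to 297.4) overlapped. The summed score of 14 erythroid markers was 3095 to 3168 in WT and 2717 to 2744 in KO. None of the markers in these lists was at 0 in all libraries. Taken as a difference from genes in the same decile, the median log2 fold change of the tested markers in Late nuclei was 0.11 for stem and progenitor, -0.06 for myeloid, 0.06 for B cell, -0.10 for T or NK cell and -0.19 for erythroid markers. In Int nuclei the summed scores of myeloid (82.6 to 98.8 in WT, 111 to 119 in KO), B cell (83.98 to 96.2, 97.5 to 108), T or NK cell (80.4 to 101, 108 to 121) and erythroid markers (2499 to 2736, 2325 to 2434) also stood apart. So, by small gaps, did those of megakaryocyte (280.3 to 312.7, 312.8 to 327.3) and mast cell or basophil markers (26.74 to 33.51, 33.66 to 34.66). Those of stem and progenitor (79.59 to 100.2, 98.51 to 110.4) and macrophage markers (242.2 to 261.6, 247.1 to 258.3) overlapped there. The same decile differences in Int were 0.0604 for stem and progenitor, 0.10 for myeloid, 0.082 for B cell, 0.0785 for T or NK cell and -0.10 for erythroid markers, beside the members' 0.090. In this order, the tested markers behind them numbered 7, 10, 5, 4 and 14 in Int nuclei. In Late nuclei they numbered 5, 8, 4, 3 and 14. The part of these shifts in the members' scores was not tested.

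The sensors stand at the head of the pathway, and the module holds 3 of them. Eif2ak1, the haem-regulated kinase (chromosome 5, 143817792 to 143902717, mm10), scored 148, 144 and 152 in WT and 146, 146 and 142 in KO in Late nuclei. The genotypes overlapped, and the log2 fold change was -0.03 (95% interval -0.12 to 0.05, adjusted p = 0.479). In Int nuclei its WT values of 98.8, 95.3 and 101 all lay above the KO values of 89.8, 92.5 and 91.2, with a log2 fold change of -0.11 that did not pass (adjusted p = 0.115). With median centring it was called lower in Int nuclei (-0.28, adjusted p = 0.0261) and over all nuclei (-0.23, adjusted p = 0.0195). Eif2ak3, which encodes PERK, the sensor of misfolded protein in the endoplasmic reticulum, scored 97.8, 103 and 102 in WT and 109, 110 and 109 in KO in Late nuclei. It was higher there by 0.12 on the log2 scale (adjusted p = 0.0317), a call that was lost without WT replicate 1 or 2 or any of the KO replicates, with adjusted p of 0.0518 to 0.0956, and with median centring (0.05, adjusted p = 0.382). It was also lost without a variance trend (adjusted p = 0.0749). In Int (0.10, adjusted p = 0.164) and over all nuclei (0.09, adjusted p = 0.0681) Eif2ak3 was not called, though the genotypes did not overlap. In Int nuclei it passed with quantile normalization (0.13, adjusted p = 0.0369) and cyclic loess (0.13, adjusted p = 0.0331), and over all nuclei with both (adjusted p = 0.00796 and 0.0062). Eif2ak4, which encodes the amino acid sensor GCN2, scored 63.2, 71.6 and 77.7 in WT and 76.9, 84.5 and 81.9 in KO in Late nuclei, so the highest WT library lay above the lowest KO library. It was higher by 0.20 in Late (adjusted p = 0.0247) and by 0.15 over all nuclei (adjusted p = 0.0478). Both calls were lost without WT replicate 1 or 2 or KO replicate 2 or 3 (adjusted p of 0.052 to 0.112 in Late and 0.0628 to 0.229 over all nuclei) and with median centring (0.13, adjusted p = 0.134, and -0.000537, adjusted p = 0.996). They were also lost without a variance trend (adjusted p = 0.0821 in Late and 0.149 over all nuclei). Over all nuclei the call was lost with a score minimum of 20 (adjusted p = 0.0675) or none (adjusted p = 0.0686). Eif2ak2, which encodes the double-stranded RNA sensor PKR and is not a member, was lower in KO in Late nuclei, at 21.7, 22.0 and 18.3 in WT and 14.5, 15.5 and 14.4 in KO (-0.45, adjusted p = 0.000936), and also in Int nuclei (-0.30, adjusted p = 0.0144) and over all nuclei (-0.34, adjusted p = 0.00376).

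Atf4, the central factor, had no measurement. It was listed at 0 in every library, as were 301 genes in all, among them the widely expressed Actg1, Eef2 and P4hb, so nothing can be said about its locus.

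Among the other transcription factors, 5 of 5 tested were higher in Late nuclei, where 32.9% of all genes were higher and an average of 24.8% in these genes' deciles of mean score, and Atf3 and Nupr1 also in Int nuclei and over all nuclei. Atf3, a stress-induced factor that mostly represses (chromosome 1, 191170296 to 191218039), scored 11.7, 11.9 and 13.0 in WT and 20.7, 20.4 and 20.2 in KO in Late nuclei. Every KO library was far above every WT library, and the KO libraries lay close together. The log2 fold change was 0.70 ± 0.0816 (SE, adjusted p = 1.55e-05) in Late and 0.69 ± 0.106 (adjusted p = 2.46e-05) in Int nuclei, where WT libraries scored 16.0, 18.8 and 16.5 and KO libraries 29.7, 26.9 and 27.6.

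Nupr1, a small chromatin protein induced by stress (chromosome 7, 126623246 to 126625470), scored 11.03, 12.6 and 9.41 in WT and 17.6, 20.4 and 17.4 in KO in Late nuclei. In Int nuclei it scored 15.1, 15.3 and 12.8 in WT and 22.2, 21.1 and 21.8 in KO. The genotypes stood apart in both classes, with log2 fold changes of 0.70 ± 0.107 (adjusted p = 0.000134) and 0.56 ± 0.12 (adjusted p = 0.0011).

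Ddit3, which encodes CHOP, the factor of prolonged stress (chromosome 10, 127290793 to 127296288), was called higher in KO in Late nuclei and was not called in Int or over all nuclei. Its Late scores were 319, 350 and 324 in WT and 376, 404 and 418 in KO, without overlap, a log2 fold change of 0.27 ± 0.0466 (adjusted p = 0.00034). In Int nuclei the values were 337, 339 and 338 in WT and 316, 333 and 344 in KO, which overlapped (log2 fold change -0.03, adjusted p = 0.748). Over all nuclei the log2 fold change was 0.13 (adjusted p = 0.0664); it passed in 7 of 17 alternatives, among them quantile normalization (0.18, adjusted p = 0.0038), cyclic loess (0.20, adjusted p = 0.003) and the fit without KO replicate 1 (0.18, adjusted p = 0.0177), and was -0.0158 with median centring. Cebpg, a C/EBP partner of ATF4, scored 97.9, 109 and 103 in WT and 115, 123 and 130 in KO in Late nuclei (log2 fold change 0.25, adjusted p = 0.00208), again without overlap. Atf5, a relative of ATF4 tied to mitochondrial stress, scored 129, 140 and 136 in WT and 145, 161 and 157 in KO (log2 fold change 0.19, adjusted p = 0.00493); it missed the threshold with median centring (0.12, adjusted p = 0.0688).

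The feedback genes split. Trib3, a pseudokinase that binds and restrains ATF4 (chromosome 2, 152337425 to 152344060), scored 25.4, 42.1 and 24.9 in WT and 56.5, 66.7 and 69.8 in KO in Late nuclei. WT replicate 2 stood above the other WT libraries but below every KO library, and the log2 fold change was 1.07 ± 0.147 (adjusted p = 5.85e-05). In Int nuclei the values overlapped, at 25.3, 31.2 and 23.6 in WT and 31.5, 27.5 and 38.2 in KO (0.27, adjusted p = 0.08). It passed there without WT replicate 2 (0.38, adjusted p = 0.00473) or KO replicate 2 (0.38, adjusted p = 0.0172), and with the replicate block (0.27, adjusted p = 0.0185). Eif4ebp1, a repressor of cap-dependent translation and a known ATF4 target (chromosome 8, 27260327 to 27275656), scored 31.8, 34.1 and 31.2 in WT and 50.6, 55.6 and 53.7 in KO in Late nuclei, with a gap between the genotypes (0.70 ± 0.0614, adjusted p = 1.17e-06). Its Int values of 30.8, 32.4 and 25.9 in WT and 36.9, 31.0 and 38.3 in KO overlapped, without a call (0.25, adjusted p = 0.0617 in limma). It passed there without WT replicate 2 or KO replicate 2 and with the replicate block.

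Ddit4, which encodes the mTORC1 inhibitor REDD1, went the other way. Its Late scores were 291, 291 and 309 in WT and 267, 267 and 279 in KO, all KO libraries being lower, and it fell by 0.13 on the log2 scale (adjusted p = 0.0118); with quantile normalization the change was -0.08 (adjusted p = 0.0642) and with cyclic loess -0.09 (adjusted p = 0.0618). In Int nuclei it fell by 0.26 (adjusted p = 0.00152; 0.0905 without a variance trend), from 201, 191 and 220 in WT to 167, 162 and 183 in KO. Ppp1r15a, which encodes the phosphatase subunit GADD34 that restores eIF2, and Sesn2, an mTORC1 inhibitor, did not pass over all nuclei, in Int or in Late nuclei: their log2 fold changes in Late nuclei were -0.06 (95% interval -0.15 to 0.03) and -0.04 (-0.12 to 0.04). With median centring Sesn2 was called lower over all nuclei (-0.24, adjusted p = 0.0316) and in Int nuclei (-0.30, adjusted p = 0.042), and in Int nuclei also without WT replicate 2 (-0.15, adjusted p = 0.0476).

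**Figure D2:**
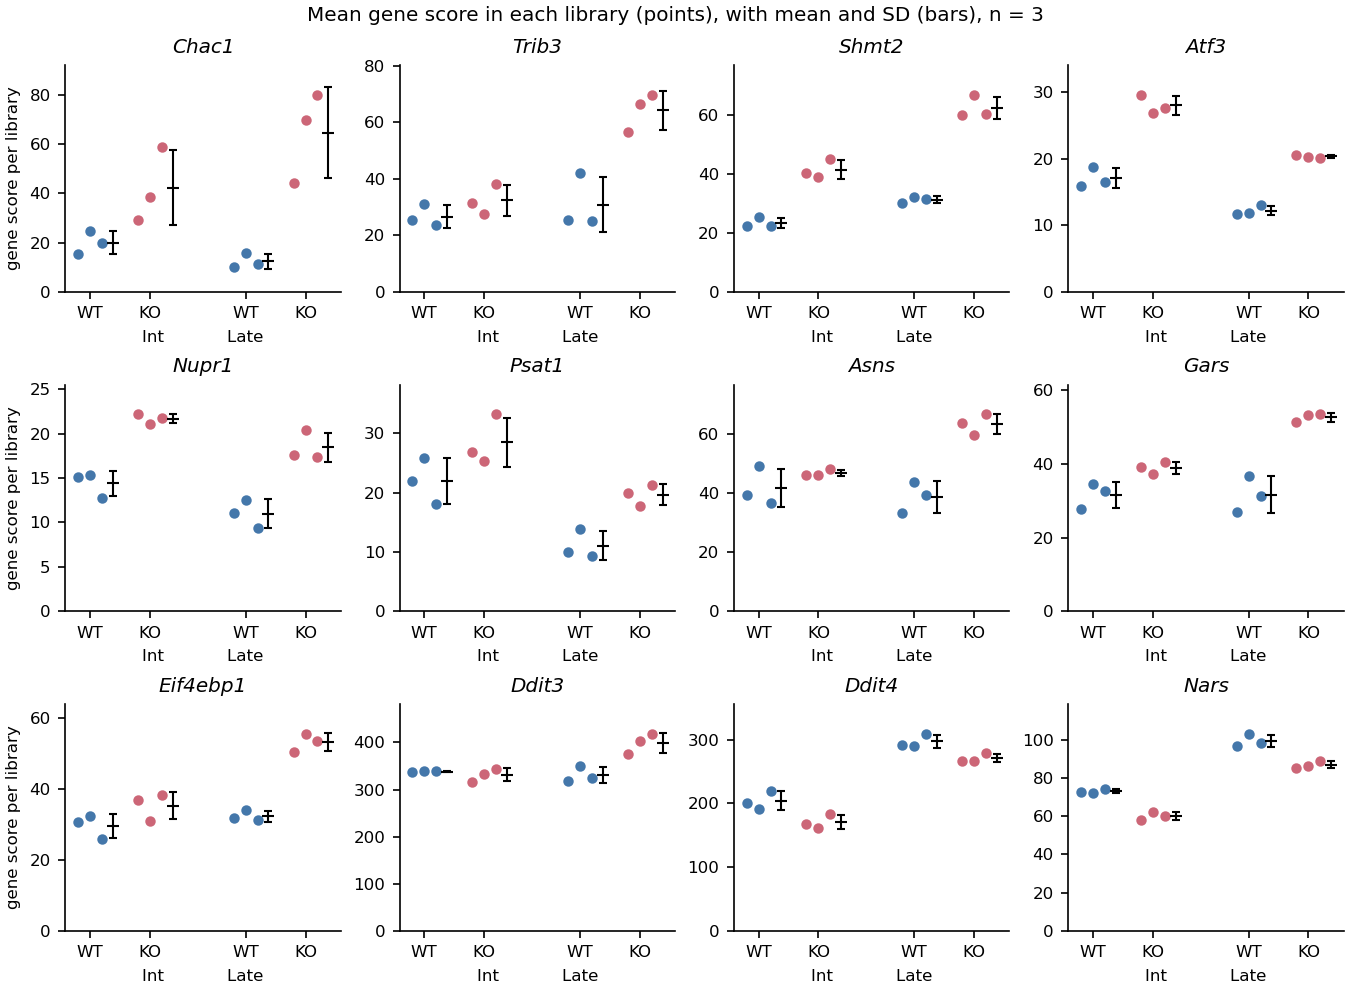
Mean gene score in each library (blue WT, red KO) of 12 members in Int and Late nuclei, with the mean and SD of 3 libraries beside the points; every vertical axis starts at 0. All 12 were picked from the members called in Late nuclei, so the panels do not stand for the module. In Late nuclei the genotypes are apart in all 12 panels, with Ddit4 and Nars lower in KO. Over all tested members they were apart there for 22 of 32, beside 59.5% of all genes.

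Of 9 genes of serine, one-carbon and asparagine metabolism tested over all nuclei, 6 were higher: Asns, Psat1, Shmt2, Mthfd2, Pck2 and Phgdh. Among all genes 29.1% were higher, and an average of 23.8% in these genes' deciles of mean score. Phgdh was tested only because its KO scores were high, so the count is best read without it. In Late nuclei 5 of 7 tested were higher, against 32.9% of all genes and an average of 21.2% in their deciles of mean score. Shmt2, the mitochondrial enzyme that splits serine into glycine and a one-carbon unit (chromosome 10, 127517123 to 127522444), scored 30.0, 32.1 and 31.6 in WT and 59.9, 66.7 and 60.0 in KO in Late nuclei. The KO libraries were far above the WT libraries, a log2 fold change of 0.97 ± 0.0612 (adjusted p = 6.02e-08). In Int nuclei the WT libraries scored 22.2, 25.3 and 22.4 and the KO libraries 40.3, 38.8 and 44.9 (0.80 ± 0.0862, adjusted p = 9.68e-08).

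Asns, the enzyme that makes asparagine (chromosome 6, 7675171 to 7693182), scored 33.1, 43.6 and 39.2 in WT and 63.7, 59.6 and 66.5 in KO in Late nuclei, a log2 fold change of 0.70 ± 0.0827 (adjusted p = 1.58e-05) with the genotypes apart. In Int nuclei WT replicate 2, at 48.9, was above all KO libraries (46.2, 45.9 and 47.9) and the other WT libraries were at 39.2 and 36.7, so the groups overlapped (0.17, adjusted p = 0.133). Without WT replicate 2 the Int difference was 0.29 and passed (adjusted p = 0.00291), and with median centring it was -0.003998. Psat1, an aminotransferase of serine synthesis (chromosome 19, 15905123 to 15925059), scored 10.1, 13.8 and 9.33 in WT and 19.9, 17.7 and 21.3 in KO in Late nuclei (0.79 ± 0.124, adjusted p = 0.000175). Its Int values of 21.9, 25.9 and 17.99 in WT and 26.9, 25.3 and 33.2 in KO overlapped, although it passed there too (0.37, adjusted p = 0.0282). That call was lost in 9 of 17 alternatives, among them median centring (0.19, adjusted p = 0.101), quantile normalization (0.18, adjusted p = 0.255) and the fits without WT replicate 1 (adjusted p = 0.0669), WT replicate 3 (0.24, adjusted p = 0.158) or KO replicate 3 (0.25, adjusted p = 0.193).

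Mthfd2, the mitochondrial folate dehydrogenase, scored 61.2, 69.4 and 55.0 in WT and 76.7, 77.0 and 84.3 in KO in Late nuclei (0.36, adjusted p = 0.00107). Pck2, the mitochondrial enzyme that turns oxaloacetate into phosphoenolpyruvate, scored 172, 192 and 180 in WT and 216, 215 and 213 in KO (0.24, adjusted p = 0.000487). Over all nuclei its call (0.15, adjusted p = 0.0102) was lost with median centring (0.002395, adjusted p = 0.984) and without a variance trend (adjusted p = 0.052). Mthfd2 and Pck2 both had Late KO libraries above all WT libraries. In Int nuclei their libraries overlapped and neither passed in limma (0.05, adjusted p = 0.514, and 0.06, adjusted p = 0.425). Pck2 passed there with quantile normalization (0.10, adjusted p = 0.0474) and cyclic loess (0.12, adjusted p = 0.0262). Phgdh, the first enzyme of serine synthesis, was near the score minimum: over all nuclei it scored 4.46, 4.42 and 3.72 in WT and 7.75, 5.48 and 5.91 in KO (0.50, adjusted p = 0.00465), and it passed the minimum through the KO libraries. That call was lost with quantile normalization (0.21, adjusted p = 0.141). Phgdh was not called in Int nuclei (limma, 0.28, adjusted p = 0.267).

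Mthfd1l, the mitochondrial formate synthetase, was lower in Late nuclei, at 72.0, 76.5 and 69.4 in WT and 66.0, 65.1 and 65.4 in KO. It fell by 0.15 (adjusted p = 0.0263), and the call was lost without WT replicate 2 or any of the KO replicates (adjusted p of 0.0513 to 0.137), with quantile normalization (-0.10, adjusted p = 0.11), with cyclic loess (-0.0834, adjusted p = 0.194) and without a variance trend (adjusted p = 0.0556). With median centring it was also called lower over all nuclei (-0.25, adjusted p = 0.00351) and in Int nuclei (-0.25, adjusted p = 0.0359). Psph, the last enzyme of serine synthesis, was not called over all nuclei, in Int or in Late nuclei (Late log2 fold change -0.03, 95% interval -0.12 to 0.07), but was lower over all nuclei with median centring (-0.18, adjusted p = 0.0429). Not called either was Aldh1l2, a mitochondrial folate enzyme with scores of 3.65 to 7.40 over both classes.

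Of the amino acid transporters, Slc7a11, the cystine importer (chromosome 3, 50364936 to 50443613), scored 3.95, 3.88 and 4.91 in WT and 5.72, 7.45 and 6.48 in KO over all nuclei. Every KO library was above every WT library (0.52, adjusted p = 0.00238), but the gene passed the minimum through its KO libraries, and cyclic loess ended the call (0.24, adjusted p = 0.2). Slc7a11 was not called in Int nuclei (limma, 0.15, adjusted p = 0.527). Slc7a5, the large neutral amino acid carrier, scored 240, 255 and 242 in WT and 282, 277 and 273 in KO in Late nuclei, without overlap (0.17, adjusted p = 0.00197; 0.11 with median centring, adjusted p = 0.0737). Its partner chain Slc3a2, the arginine and lysine carrier Slc7a1 and the neutral amino acid carrier Slc38a2 were not called; in Late nuclei their 95% intervals were -0.03 to 0.13, -0.03 to 0.21 and -0.05 to 0.14. Slc3a2 passed in Late nuclei with quantile normalization (0.0997, adjusted p = 0.0223) and cyclic loess (0.0922, adjusted p = 0.0373).

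The transfer RNA synthetases, which charge transfer RNA with its amino acid, moved in both directions. Gars, for glycine (chromosome 6, 55038001 to 55079504), scored 27.0, 36.9 and 31.2 in WT and 51.4, 53.2 and 53.5 in KO in Late nuclei, well apart (0.73 ± 0.087, adjusted p = 1.88e-05). In Int nuclei Gars scored 27.8, 34.5 and 32.7 in WT and 39.1, 37.3 and 40.6 in KO (0.30, adjusted p = 0.0105). The Int call was lost with median centring (0.12, adjusted p = 0.297), quantile normalization (0.21, adjusted p = 0.0822), cyclic loess (0.22, adjusted p = 0.0704), without a variance trend (adjusted p = 0.086) and without WT replicate 1 (0.21, adjusted p = 0.0947). Sars, for serine, scored 63.1, 78.6 and 63.4 in WT and 91.3, 93.1 and 97.6 in KO in Late nuclei (0.46, adjusted p = 0.000163).

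Aars, for alanine, scored 122, 140 and 120 (Late, WT) and 146, 151 and 163 (Late, KO), the lowest KO library lying just above the highest WT library (0.27, adjusted p = 0.00197). In Int nuclei its WT values of 128.4, 129 and 133.4 lay above the KO values of 123.1, 124.8 and 125.3, without a call (-0.07, adjusted p = 0.331). Nars, for asparagine, was lower in KO in all 3 fits: its Late scores were 96.8, 103 and 97.9 in WT and 85.4, 86.3 and 89.0 in KO, and it fell by 0.19 (adjusted p = 0.00328). In Int nuclei Nars fell by 0.28 (adjusted p = 0.000278), from 72.8, 72.0 and 74.2 to 57.8, 62.1 and 59.8. Wars, for tryptophan, did not pass (Late log2 fold change 0.04, 95% interval -0.07 to 0.15).

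Chac1, which degrades glutathione and is among the genes most readily induced through ATF4 (chromosome 2, 119351242 to 119354326), had the highest fold change of the tested members over all nuclei, in Int and in Late nuclei. In Late nuclei it scored 10.1, 15.8 and 11.4 in WT and 44.1, 69.6 and 79.96 in KO. The lowest KO library was far above the highest WT library, the KO libraries were widely spread, and the log2 fold change was 2.27 ± 0.178 (4.81-fold on the score + 1 scale, adjusted p = 4.34e-07). In Int nuclei the WT libraries scored 15.3, 24.6 and 19.7 and the KO libraries 29.4, 38.5 and 59.0, again without overlap, a log2 fold change of 1.02 ± 0.158 (adjusted p = 2.65e-05; 0.0586 without a variance trend).

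More nuclei had any Chac1 score in KO. The share of Late nuclei above 0 was 6.63%, 8.87% and 6.56% in WT and 16.3%, 20.9% and 25.1% in KO. The median of that share over all genes was 9.32%, 9.20% and 7.81% in WT and 10.6%, 10.4% and 11% in KO. Median fragments per Late nucleus were 5693 to 6812 in WT and 6043 to 6503.5 in KO.

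Of the remaining stress targets, Herpud1, an endoplasmic reticulum degradation factor, scored 182, 213 and 204 in WT and 220, 227 and 214 in KO in Late nuclei, almost touching (0.15, adjusted p = 0.0312). That call was lost without WT replicate 1 or KO replicate 1 or 2 (adjusted p of 0.0699 to 0.128) and with median centring (0.08, adjusted p = 0.276). Stc2, a secreted glycoprotein, did not pass over all nuclei, in Int or in Late nuclei (Late log2 fold change 0.37, adjusted p = 0.119), but passed in Late nuclei without WT replicate 2 (0.57, adjusted p = 0.0305) or KO replicate 3 (0.62, adjusted p = 0.00649), over all nuclei without either of these (0.59, adjusted p = 0.00266, and 0.56, adjusted p = 0.0137), and in Int nuclei without WT replicate 2 (0.51, adjusted p = 0.0189). The lipoprotein receptor gene Vldlr reached the score minimum only in Int nuclei (-0.06, adjusted p = 0.823); with no minimum it was called higher in Late nuclei (0.67, adjusted p = 0.00343), where its scores were under 5.

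**Figure D3:**
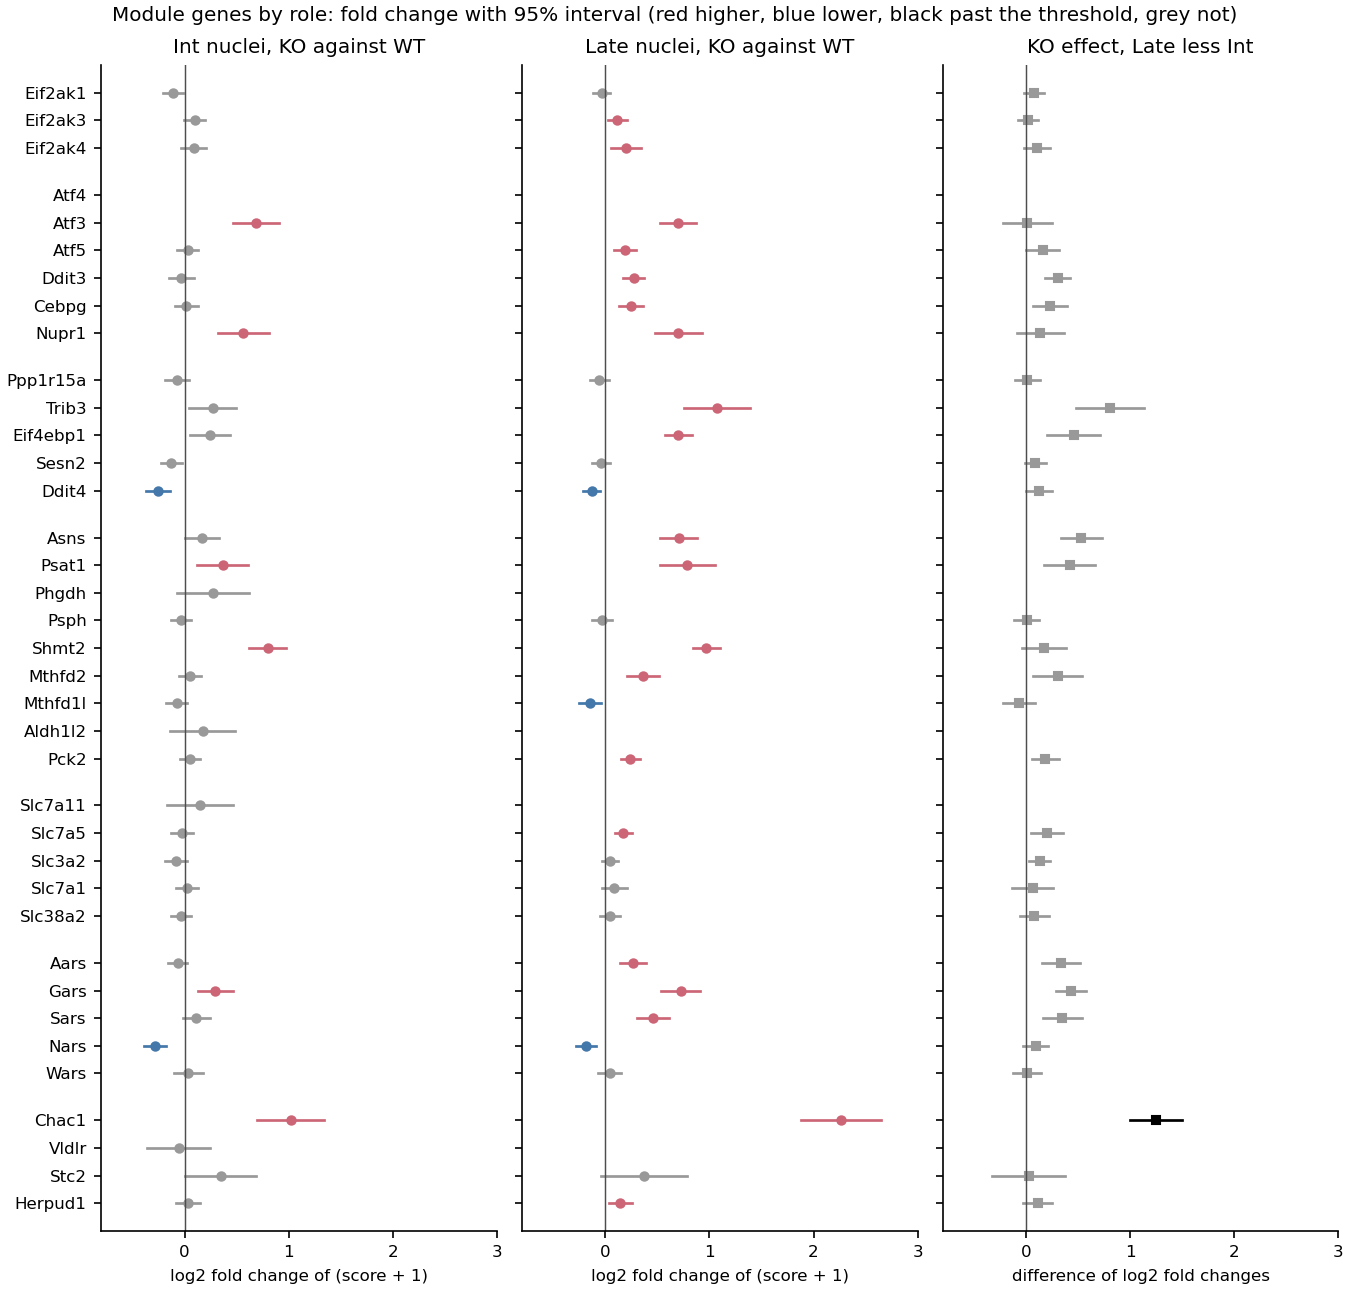
Log2 fold change of score + 1 with its 95% interval for each tested member, grouped by role, in Int nuclei (left) and Late nuclei (middle), and the difference of the KO effect between the classes (right); coloured or black symbols passed an adjusted p of 0.05 and grey ones did not. Only Chac1 (1.25) passed in the right panel.

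Whether the KO effect differed between the classes was tested on the difference of the log2 scores, Late less Int, within each library. Chac1 passed, with a difference of 1.25 (95% interval 1 to 1.5, adjusted p = 0.0205), against 0.221% of 15873 genes. Its log2 score was lower in Late than in Int nuclei in every WT library, by -0.55, -0.61 and -0.74, and higher in every KO library, by 0.57, 0.84 and 0.43. The call was lost without WT replicate 1 or 2 or KO replicate 1 or 2 (adjusted p of 0.074 to 0.178), the difference staying between 1.14 and 1.29. Without WT replicate 3, 6 of 32 members passed, against 5.10% of all genes.

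The other members did not pass this test. Gars came nearest, with a difference of 0.43 (95% interval 0.29 to 0.57, adjusted p = 0.0502), followed by Asns with 0.53 (0.33 to 0.73, adjusted p = 0.0578), Trib3 with 0.80 (0.47 to 1.13, adjusted p = 0.0586) and Ddit3 with 0.30 (0.18 to 0.43, adjusted p = 0.0586). For Atf3 the difference was 0.01 (-0.22 to 0.25) and for Shmt2 0.17 (-0.04 to 0.38). Some passed in an alternative. With cyclic loess Gars (0.46, adjusted p = 0.0426) and Asns (0.57, adjusted p = 0.0392) passed, and with the replicate block Trib3 (0.80, adjusted p = 0.0137). Without WT replicate 3, Gars, Asns, Trib3, Ddit3 and Eif4ebp1 passed. So a call in Late and none in Int, as for Asns, Trib3 and Ddit3, is not shown by the main fit to be a difference between the classes.

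The deposited clusters divide almost wholly by genotype, which bears on the Late and Int comparisons alike. In Late nuclei, 4327, 2875 and 2843 nuclei of the WT libraries lay in cluster C3, and 2123, 2477 and 2435 of the KO libraries in cluster C2. Only 63, 58 and 67 Late nuclei of the WT libraries lay in C2. In Int nuclei C5 was the cluster with at least 50 nuclei in every library, while C9, C11 and C6 were almost all WT and C8 and C10 almost all KO. Clusters were made from the same nuclei, so levels are compared between clusters without a test; KO and WT were also fitted within C5, with 143, 224 and 261 WT and 520, 590 and 567 KO nuclei, and within C2.

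Among the Int clusters Shmt2 was higher in those of KO nuclei than in those of WT nuclei: 47.9 ± 4.91 in C8 and 38.5 ± 2.59 in C10 against 29.5 ± 3.80 in C9, 22.3 ± 1.297 in C11 and 20.7 ± 5.66 in C6 (SD, n = 3). Atf3 followed the same order, at 32.7 ± 1.16 and 26.4 ± 0.416 in the KO clusters and 20.9 ± 2.05, 17.0 ± 1.87 and 16.0 ± 2.51 in the WT clusters. Within C5, Atf3 was 13.6 ± 3.11 in WT and 25.8 ± 3.68 in KO, without overlap. Shmt2 there was 33.5, 16.6 and 17.99 in WT and 32.01, 36.4 and 43.2 in KO, so 1 WT library lay above the lowest KO library.

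Trib3 and Asns varied as much between clusters of a genotype as between genotypes. Trib3 was 44.8 ± 1.39 in the WT cluster C9 and 21.0 ± 0.666 in the WT cluster C11, beside 42.0 ± 3.74 in the KO cluster C8 and 29.5 ± 5.22 in C10. Asns was 59.0 ± 2.99 in C9 and 36.3 ± 1.80 in C11, beside 56.1 ± 1.37 in C8 and 39.9 ± 2.72 in C10. Within C5, Trib3 was 34.9 ± 18.9 in WT and 26.4 ± 7.72 in KO, and Asns 46.6 ± 14.4 and 44.3 ± 5.53, so both overlapped.

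**Figure D4:**
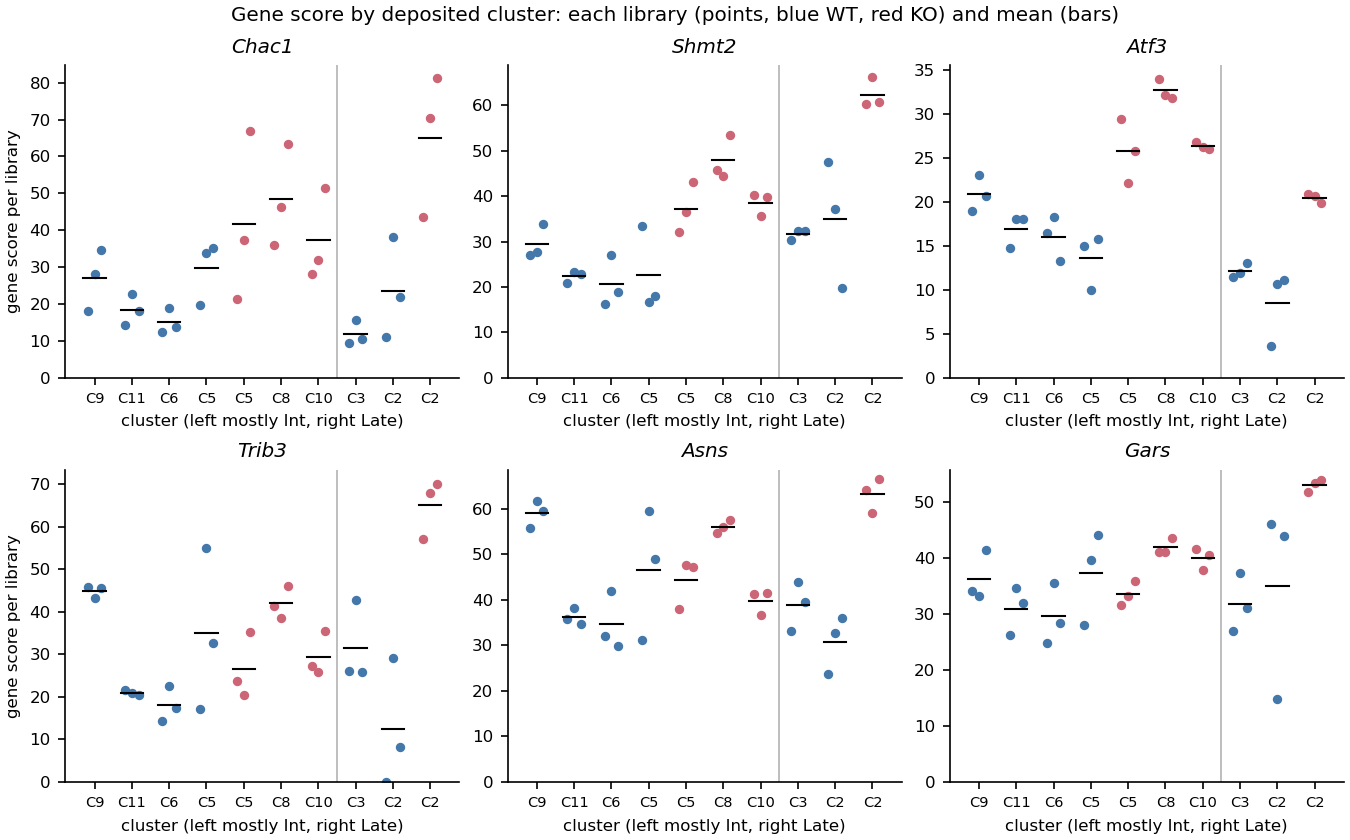
Gene score of 6 members by deposited cluster, each point a library (blue WT, red KO) and each bar the mean of 3 libraries; clusters left of the grey line hold mostly Int nuclei and those to its right Late nuclei. WT libraries held 58 to 67 Late nuclei in C2, and their points there are widely spread.

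When KO was compared with WT within C5 alone, none of 35 members passed in limma, against 0.879% of all genes; 6 members had an unadjusted p under 0.05, against 13.4% of all genes. Of these, Atf3, Shmt2 and Sars (0.42) were higher and Ddit3 (-0.25), Ddit4 (-0.38) and Mthfd1l (-0.32) lower. The log2 fold change in C5 was 0.91 ± 0.248 for Atf3 (adjusted p = 0.131) beside 0.69 in all Int nuclei, 0.76 ± 0.255 for Shmt2 (adjusted p = 0.216) beside 0.80, and 0.39 ± 0.341 for Chac1 beside 1.02. Within C2 alone, a comparison chosen after seeing the data, none of 35 members passed in limma, against 0% of all genes; 10 members had an unadjusted p under 0.05, 9 higher and Herpud1 lower (-0.35), against 12.6% of all genes. There Trib3 was at 3.33 ± 1.12, Eif4ebp1 at 1.61 ± 0.833, Chac1 at 1.52 ± 0.46, Atf3 at 1.305 ± 0.477, Asns at 1.02 ± 0.224 and Nupr1 at 0.16 ± 0.553. The WT libraries held 58 to 67 nuclei in this comparison. Over all nuclei of C2, Trib3 scored 0, 29.1 and 8.21 in WT and 57.1, 67.9 and 69.9 in KO, so its fold change rests in part on a WT library at 0. Eif4ebp1 scored 3.32, 51.9 and 23.5 in WT and 50.7, 55.8 and 54.0 in KO, which overlapped.

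Because a score takes in fragments from nearby genes, the tested genes starting within 100 kb of each called member were examined. Over all nuclei, 11 of the 17 called members had a neighbour called in the same direction, and for 5 members a neighbour changed more than the member itself. In Late nuclei 18 of 23 had such a neighbour, and for 9 a neighbour changed more. Of all called genes, 65.4% over all nuclei and 65.2% in Late nuclei had a neighbour called in the same direction, and for 44.2% in both a neighbour changed more in that direction. All 4 tested neighbours of Shmt2 were higher in KO over all nuclei, led by the lipoprotein receptor gene Lrp1 (0.71, adjusted p = 4.25e-08). Nrsn2, starting 32506 bases from Trib3, changed by 0.86 (adjusted p = 1.71e-06) where Trib3 changed by 0.75. In Late nuclei Cebpa, a myeloid factor gene 62727 bases from Cebpg, changed by 0.68 (adjusted p = 3.28e-05), more than Cebpg. Closer still, Mbd6 starts 2022 bases from Ddit3 and changed by 0.268 in Late nuclei, beside 0.272 for Ddit3. Ddx19b starts 2091 bases from Aars and changed by 0.46 there, beside 0.27 for Aars. Of 11 tested neighbours of Ddit3, 2 were called higher and 3 lower, and of 6 of Aars, 3 higher and 1 lower. The part of shared fragments in these scores was not tested.

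Some called members had no tested or no called neighbour. Asns had no tested neighbour in that distance, and neither had Phgdh or Slc7a11 over all nuclei. Psat1 had 2 in Late nuclei, neither called, of which Cep78 changed most in the same direction (0.06, adjusted p = 0.555). Chac1 had 4 tested neighbours in Late nuclei, 2 of them called higher, and Gm14207 changed most, by 0.60 (adjusted p = 0.000912). The single tested neighbour of Nars, the haem synthesis gene Fech, fell by 0.10 (adjusted p = 0.0316).

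The rest of the pathway was counted in further lists, to be read against the 32.9% of all genes higher and 18.5% lower in Late nuclei. Averaged over the deciles of each list's genes, the share higher ran from 14.3% for the endoplasmic reticulum list to 37.1% for the other folate and serine enzymes. In a list of 12 genes for eIF2, its exchange factor eIF2B and their phosphatase, which also holds the sensor gene Eif2ak2, none was higher and 4 were lower, Eif2ak2 among them, both over all nuclei and in Late nuclei. The highest was Eif2b5, an eIF2B subunit gene, with a Late score of 33.5 ± 3.34 in WT and 33.9 ± 2.83 in KO (0.02, adjusted p = 0.88). The lowest was Eif2ak2, with a Late score of 20.7 ± 2.07 in WT and 14.8 ± 0.649 in KO. Of 15 further transfer RNA synthetases, 2 were higher and 4 lower in Late nuclei. Tars, for threonine, scored 55.3 ± 4.13 in WT and 73.5 ± 3.65 in KO (0.41, adjusted p = 0.000125), and Cars, for cysteine, 116 ± 6.16 and 95.8 ± 2.30 (-0.27, adjusted p = 0.000477).

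Among 13 tested genes of the endoplasmic reticulum stress arms beside PERK, 4 were higher and none lower in Late nuclei. Sdf2l1, a chaperone cofactor, scored 49.8 ± 3.56 in WT and 70.7 ± 4.79 in KO (0.50, adjusted p = 3.53e-05), while Hspa5, which encodes the chaperone BiP, was at 280 ± 11.6 and 263 ± 5.94 (-0.09, adjusted p = 0.0709). Of 8 tested genes for other folate and serine enzymes, 2 were higher and 1 lower in Late nuclei. Gcsh, of the glycine cleavage system, scored 29.9 ± 2.44 in WT and 46.2 ± 3.42 in KO (0.61, adjusted p = 1.88e-05), and the cytosolic folate enzyme Mthfd1 34.9 ± 0.679 and 26.1 ± 0.685 (-0.41, adjusted p = 0.000155).

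Further amino acid enzymes (10 tested) counted 3 higher and 3 lower in Late nuclei, and further amino acid transporters (9 tested) 4 higher and 3 lower. Got1, the cytosolic aspartate aminotransferase, scored 63.5 ± 6.53 in WT and 86.4 ± 3.19 in KO (0.44, adjusted p = 0.000116), and Bcat2, which starts branched-chain amino acid breakdown, 65.7 ± 2.18 and 50.1 ± 5.14 (-0.39, adjusted p = 0.000369). The transporter gene Slc7a6 scored 11.04 ± 0.883 in WT and 15.2 ± 2.38 in KO (0.42, adjusted p = 0.00581), and Slc25a38, the mitochondrial glycine carrier needed for haem synthesis, 137 ± 6.55 and 120 ± 4.04 (-0.19, adjusted p = 0.00331).

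In the list of mitochondrial stress and mTORC1 brake genes, 5 of 11 tested were higher and 5 lower in Late nuclei. Castor1, the arginine sensor that restrains mTORC1, scored 116 ± 11.6 in WT and 165 ± 5.72 in KO (0.52, adjusted p = 1.38e-05), and Clpp, a mitochondrial protease, 176 ± 5.45 and 149 ± 6.39 (-0.24, adjusted p = 0.000549).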

How the data were processed

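The deposited gene score table holds a signal per gene and nucleus, scaled by the authors so that each nucleus sums to between 9999.86 and 10000.12. How fragments were weighted is not given in the sources used here; Cell Ranger and mm10 are named per the submitters' processing notes. The deposited table of nuclei gives fragment counts (unscaled), classes, clusters and a doublet score, per the file headers; it lists each nucleus 2 times, and 1 copy was used. Scores of 34073 nuclei were averaged per library and class (at least 50 nuclei in every library) and rescaled to 1000000. Genes with a mean of at least 5 were compared on log2(score + 1) with limma 3.58.1 in R 4.3.3 (trended eBayes, two-sided, Benjamini-Hochberg over all genes tested, threshold 0.05); fold changes are on that scale, which understates low genes. Python 3.11.15 and matplotlib 3.10.9 did the rest. The procedure was tested on simulated data.

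Every member was accounted for. Values per library were given for members past the threshold in any fit and always for Eif2ak1, Atf4, Ddit3, Asns, Chac1 and Trib3; the other lists gave counts and their highest and lowest gene over all nuclei. Members and lists were chosen with earlier results of these data known. Alternatives covered the pseudocount, filter, scaling, variance trend, replicate block, libraries left out, depth strata, doublets, class weights and clusters. Deviations of same-numbered WT and KO libraries had correlations across genes of -0.117, -0.273 and 0.206 over all nuclei. They were 0.129, -0.0842 and 0.192 in Int and 0.0871, 0.0453 and 0.0508 in Late nuclei. WT replicate 2 and KO replicate 1 reached 0.422 over all nuclei. These values were small or of mixed sign for same-numbered libraries and the labels name no pairs, so the main fits used no pairing. RNA, CUT&RUN, Hi-C and stem cell samples were not analysed here.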

Additional observations from a re-analysis of the deposited data

Results flagged for a closer look

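The KO effect on Chac1 differed between Late and Int nuclei by 1.25 on the log2 scale (limma on within-library differences, adjusted p = 0.0205), the member for which the difference between the classes itself passed. Every WT library moved down from Int to Late and every KO library moved up. As the report gives, the call did not survive the loss of WT replicate 1 or 2 or KO replicate 1 or 2. The clusters that hold the Late nuclei, C3 in WT and C2 in KO, differ between the genotypes, and their part in this difference was not tested.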

How the results depend on the processing

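Over all nuclei, median centring gave 6 lower members, with Eif2ak4 at -0.000537, Ddit3 at -0.0158 and Eif2ak1 called lower at -0.23. Ddit3 over all nuclei passed in 7 of 17 alternatives (lowest adjusted p = 0.003). With quantile normalization and cyclic loess the median shift of a gene's log2 fold change was -0.14 and -0.11 over all nuclei and -0.13 and -0.12 in Int nuclei. In Int nuclei median centring gave 5 lower members and Asns at -0.003998; without a variance trend 3 members were higher and 1 lower; quantile normalization gave Ddit3 at 0.0145 and cyclic loess 0.0547. Int nuclei of cluster C5 alone gave 0 higher and 0 lower, a members' median less genes of like mean score of 0.0096, and Trib3 at -0.27, Asns at -0.0294 and Gars at -0.12. In Late nuclei, 1 member was lower with quantile normalization, with cyclic loess and without a variance trend, and Eif2ak1 was at 0.0244 and 0.0289 in the first 2. Cluster C2 alone, added after seeing the data, gave 0 higher and 0 lower, a median of 0.033, and Eif2ak3 at -0.0757, Mthfd1l at 0.0207, Nars at 0.0257 and Herpud1 at -0.35. The cause was not tested. Both cluster fits also have fewer nuclei, and the part of that in these changes was not tested either.

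For the KO effect in Late less Int, cyclic loess gave 3 members higher. Leaving out 1 library at a time gave 4 (without WT replicate 1) to 10 (without WT replicate 2) higher members in Int nuclei, 0 (without WT replicate 1) to 6 (without WT replicate 3) in Late less Int, and -0.0579 to 0.00155 for Ddit3 in Int nuclei. With the replicate block, members higher and lower were 19 and 2 over all nuclei, 8 and 2 in Int and 21 and 3 in Late. In Late less Int 2 were higher with it. The labels do not say that the replicate numbers pair the samples. Among the alternatives, the share of all genes called is given only for C5, C2 and Late less Int without WT replicate 3. In Late less Int it was 0.221% in the main fit and 5.10% without that library. The other counts therefore do not set members against other genes. Of 317 single-gene values over all nuclei, 292 kept direction and side of the threshold, of 203 in Int 169, and of 429 in Late 374. These values cover 19, 12 and 24 genes, namely the members called in that fit and some of those always named. Every value stayed the same for 11 of the 19 genes over all nuclei, and for 0 genes in Int and 0 in Late. Other members that gained a call in an alternative are not in these totals.

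Depth limits genes with scores near 5, which pass the minimum mainly where they are high, and clusters with few nuclei. No gene score shows RNA, fewer accessible nuclei and lower accessibility per nucleus cannot be told apart in a library mean, and genotype cannot be told apart from any batch, since the labels name none.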

Other observations

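Between Int and Late nuclei the members moved in both directions in WT, as a description of classes made from the same nuclei. Late less Int, on the log2 scale and as a mean over 3 WT libraries, Ddit4 was at 0.54 ± 0.0589, Eif2ak1 at 0.59 ± 0.00755 and Herpud1 at 0.53 ± 0.0419 (SD). Some genes of amino acid supply lay below 0, with Psat1 at -0.93 ± 0.107, Slc7a11 at -1.25 ± 0.299 and the carrier Slc7a1 at -0.55 ± 0.0616, while Shmt2, Slc3a2, Pck2, Slc7a5 and Psph lay above 0. In KO libraries Eif2ak1 was at 0.66 ± 0.0308, Slc7a1 at -0.48 ± 0.0613, Psat1 at -0.51 ± 0.101 and Slc7a11 at -0.41 ± 0.167. Scores of Slc7a11 in Late nuclei were 1.85 to 2.91 in WT and 4.22 to 6.598 in KO, below or near the minimum used for testing.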
